A study of Homo sapiens with 3 samples.

Results

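Single H9 cells, an established line of human embryonic stem cells, were compared between the library labelled day 6 and the library labelled day 2 of neural progenitor differentiation. A cell was kept with at least 1000 unique molecular identifiers (UMIs, 1 per captured RNA molecule), at least 500 genes and at most 25% of its UMIs from the mitochondrial genome. The comparison holds 6599 kept cells, 2419 labelled day 2 and 4180 labelled day 6, of 8889 kept cells in the series. The remaining kept cells belong to a library labelled day 0. UMIs of each gene were added up within each library and divided by its total, scaled to 1000000 UMIs, which is called CPM here. Of 31113 gene symbols, 10178 had at least 10 CPM in either library, and these are the genes compared below.

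All 3 libraries come from H9 cells, were grown with mTeSR medium and the STEMdiff SMADi Neural Induction Kit, which holds inhibitors of SMAD signalling, and were made by inDrop with the TruDrop protocol. Labels describe the cells of day 2 and day 6 as differentiated embryonic stem cells or neural progenitors, and those of day 0 as embryonic stem cells. Each label is 1 library of 1 line, so there was no test between libraries and no check against replicates. The 95% intervals cover counting error; how much cultures differ is not part of them. Below, "labelled day 2" and "labelled day 6" name the libraries, and where a pair of levels is given, labelled day 2 comes first.

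Marker content went against the order of the labels. POU5F1, the pluripotency factor OCT4, had 1229 CPM in labelled day 2, 268 CPM in labelled day 6 and 2.22 CPM in the library labelled day 0. PAX6, a transcription factor of neural progenitors, had 6.64, 27.9 and 176 CPM in the same order. Of 27 measured genes of a core pluripotency list, 16 were at most 0.5 times as high in labelled day 6 as in labelled day 2, and 2 were at least 2-fold higher. Of 45 measured neural and forebrain genes, 30 were higher by 2-fold or more and 3 at most 0.5 times as high. Differences are therefore given between labelled libraries and not as a course over time.

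Embryonic stem cells form an epithelium that is held by E-cadherin and tight junctions, signals through FGF receptors and ERK kinase, responds to activin and Nodal through SMAD proteins, and leans on glycolysis. Blocking SMAD signalling turns such cells towards neuroectoderm, an epithelium that uses N-cadherin and expresses WNT, Hedgehog, ephrin and semaphorin pathway genes. Signalling state can be read from feedback genes, which a pathway switches on to restrain itself. Metabolic state can be read from the targets of a few transcription factors, among them HIF for low oxygen, ATF4 for amino acid shortage, SREBP for sterols and MTF1 for metals.

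Kept cells had median totals of 3814 and 4429 UMIs and median counts of 1749 and 2071 genes, and 3 UMIs corresponded to 0.145 and 0.0727 CPM. The median mitochondrial share was 5.26% in labelled day 2 and 8.28% in labelled day 6. Clustering of all kept cells gave 6 clusters, and 42 cells of labelled day 2 and 161 of labelled day 6 lay in clusters held mostly by another library. Of the kept barcodes, 72 occurred in both libraries. Counts without the cells in other libraries' clusters, and without barcodes kept in another library, are given near the end.

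Between the libraries, 845 genes (8.30% of those compared) were at least 2-fold higher in labelled day 6 and 643 (6.32%) were at most 0.5 times, called lower here. The other 8690 genes lay between these limits. The median log2 ratio of labelled day 6 over labelled day 2 was 0.12, with quartiles of -0.28 and 0.50. At least 4-fold, 169 genes (1.66%) were higher and 201 (1.97%) lower, and at least 10-fold, 46 (0.452%) were higher and 58 (0.570%) lower. Called genes held a small part of the RNA: those higher held 22032 and 64162 CPM, and those lower held 52141 and 16819 CPM. Of the called genes, 626 belonged to a gene list or named family and 862 to none. Counts within lists and families below are to be read against the 8.30% higher and 6.32% lower over all genes compared.

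**Figure D1:**
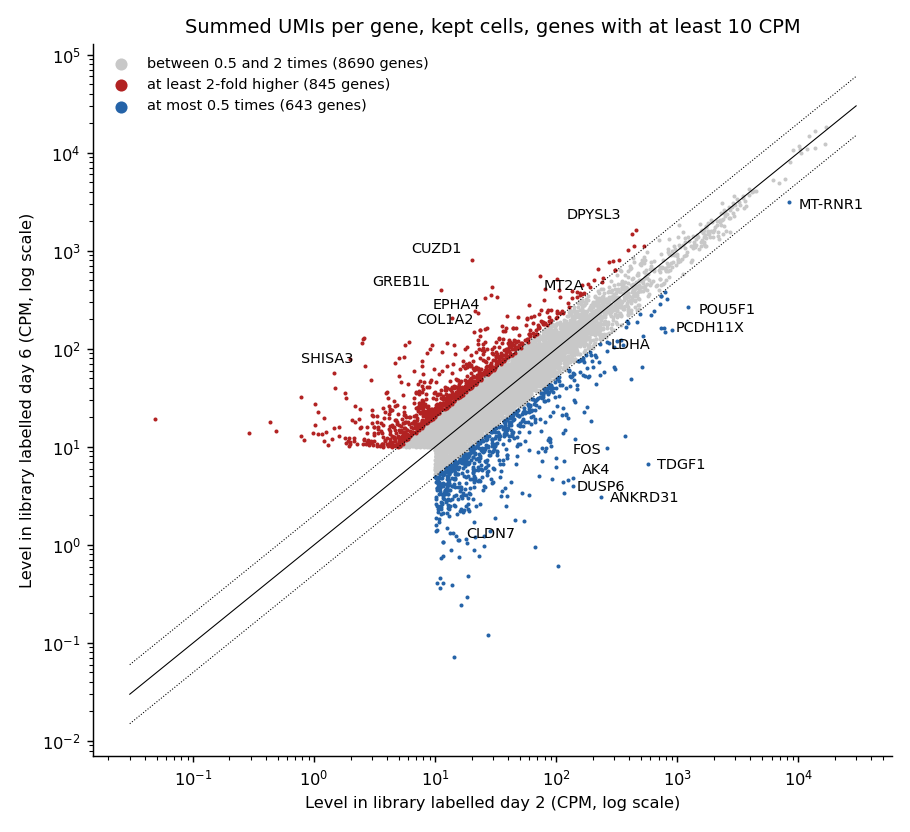
Levels of the 10178 genes with at least 10 CPM in labelled day 2 (x axis, CPM, log scale) and labelled day 6 (y axis, CPM, log scale); each point is 1 gene, the solid line marks equal levels and the dotted lines 2-fold differences. The 845 red genes lie above and the 643 blue genes below the dotted lines, with CUZD1 at 20.3 and 802 CPM and TDGF1 at 569.5 and 6.69 CPM among the farthest.

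The genes named next were ranked outside the pluripotency and neural lists. Genes on those lists reached larger ratios, such as SOX21, a neural transcription factor, at 2.52 and 127 CPM, and TDGF1, a Nodal co-receptor, 85.2-fold lower (75.6 to 96.3). CUZD1 (chr10:122832149-122850793, minus strand, GRCh38), a membrane protein with CUB and zona pellucida-like domains, had 20.3 and 802 CPM and was 39.6-fold higher in labelled day 6 (35.9 to 43.7). GREB1L (chr18:21242242-21525417, plus strand), a gene needed for kidney and inner ear development, had 11.1 and 402 CPM and was 36.4-fold higher (31.9 to 41.7). These are opposite in the third library: CUZD1 had 0.318 CPM in labelled day 0, and GREB1L had 503 CPM there. SHISA3, whose family holds FGF and Frizzled receptors back in the endoplasmic reticulum, had 2.62 and 66.3 CPM and was 25.3-fold higher (19.4 to 33.8). Its relative SHISA2 had 25.9 and 331 CPM and was 12.8-fold higher (11.7 to 13.9). LIMCH1, an activator of non-muscle myosin, had 5.67 and 109 CPM.

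Several of the leading genes encode secreted or surface proteins. PRSS23, a secreted serine protease, had 13.7 and 206 CPM and was 15-fold higher (13.4 to 17). PAMR1, a secreted protein with a protease-like domain, had 5.48 and 83.2 CPM, and PKDCC, a secreted kinase that phosphorylates matrix proteins, had 32.6 and 339 CPM. The other leaders included the matrix protein PAPLN at 9.07 and 98.6 CPM, the cadherin CDH9 at 7.76 and 75.9 CPM and the cation channel TRPC4 at 12.5 and 115 CPM. DAZL, an RNA-binding protein known from germ cells, had 22.6 and 234 CPM and was 10.3-fold higher (9.42 to 11.4), with 2.54 CPM in labelled day 0. C6orf141, CHODL, NKAIN3 and RCAN2 were also among the leading genes, at 15.9-fold, 15.4-fold, 11.3-fold and 10.5-fold higher.

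Among the lower genes, ANKRD31 (chr5:75068275-75236878, minus strand), a protein known from meiotic recombination, had 233 and 3.08 CPM and was 75.6-fold lower (63.3 to 90.8). CLDN7, a tight junction protein, had 54.5 and 1.74 CPM and was 31.2-fold lower (24.6 to 40.2). PMAIP1, the pro-apoptotic protein NOXA, had 262 and 9.84 CPM and was 26.7-fold lower (24.1 to 29.6). All 3 were also low in the library labelled day 0, at 4.55, 0.106 and 9.39 CPM. CDH18, a cadherin known from neurons, had 113 and 4.34 CPM, and HTR2C, a serotonin receptor, had 99.6 and 7.73 CPM. SORCS2, a sorting receptor of the sortilin family, had 194 and 18.4 CPM, ADCY2, an adenylate cyclase, 91.0 and 10.3 CPM, and NFE2L3, a transcription factor of the NRF family, 80.5 and 9.11 CPM. Non-coding RNAs were in this group too: RN7SK, a small nuclear RNA that restrains transcription elongation, at 99.5 and 6.25 CPM, LINC01194 at 144 and 12.1 CPM and BDNF-AS at 76.3 and 7.10 CPM. The transcripts CH507-513H4.1 and CH507-528H12.1 were lower as well, by 8.40-fold and 5.85-fold.

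FGF feedback genes were lower in labelled day 6. Of 21 measured members of a list of FGF and ERK feedback genes, 13 were lower and 1 was higher, with a median log2 ratio of -1.35 against 0.12 over all genes. DUSP6, a phosphatase that switches off ERK, had 125 and 4.56 CPM and was 27.4-fold lower (23.6 to 31.9). ETV4 and ETV5, ETS transcription factors induced by FGF, had 59.0 and 3.20 CPM and 35.3 and 3.17 CPM. SPRY4, an inhibitor of receptor tyrosine kinase signalling, had 52.3 and 3.37 CPM and was 15.5-fold lower (13 to 18.7). Its relatives SPRY2 and SPRY1 had 27.1 and 5.65 CPM and 31.4 and 12.3 CPM. The higher member was SHISA3, which acts on receptors rather than on ERK. Of 9 measured FGF ligands and receptors, 2 were higher and 1 was lower, with a median of -0.41, while their summed level was 1.49 times as high in labelled day 6. FGFR1 had 436 and 1121 CPM and was 2.57-fold higher (2.51 to 2.63), and FGFR3 had 10.8 and 23.3 CPM. FGF13 had 44.8 and 22.1 CPM and was the lower member, and FGF2, the ligand given in stem cell medium, had 129.8 and 80.4 CPM, which is not called.

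Immediate early genes, the first genes that cells transcribe after a stimulus, share several members with that list. Of 22 measured, 13 were lower and 0 higher, with a median log2 ratio of -1.32. FOS had 116 and 7.20 CPM and was 16.1-fold lower (14.3 to 18.2), JUN had 74.3 and 14.4 CPM, ATF3 46.3 and 6.71 CPM, EGR1 30.8 and 9.43 CPM and IER2 131 and 41.8 CPM. JUND, MCL1 and BTG1 lay between the limits at 101 and 97.9, 174 and 167, and 104 and 119 CPM. CYR61 and CTGF, secreted targets of the Hippo effector YAP, had 111 and 20.9 CPM and 88.8 and 20.4 CPM, and within the Hippo list of 19 measured genes 3 were lower and 2 higher, with a median of -0.04. Immediate early genes summed to 1628 and 885 CPM in cells with at least 5% mitochondrial UMIs, and to 1262 and 1011 CPM in cells below 5%. Cells of at least 5% thus had the higher level in labelled day 2 and the lower level in labelled day 6. The part of mitochondrial share in the result was not tested.

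Genes of the TGF-beta and BMP lists lay in both directions. BAMBI, a decoy receptor induced by TGF-beta and BMP, had 20.8 and 1.70 CPM and was 12.2-fold lower (9.48 to 16), and PMEPA1 and SKIL, feedback inhibitors of SMAD2 and SMAD3, had 14.7 and 2.50 CPM and 121 and 21.8 CPM. ID1, a BMP target that blocks helix-loop-helix factors, had 114 and 13.8 CPM and was 8.26-fold lower (7.53 to 9.07), whereas ID2 had 139 and 178 CPM and ID3 had 224 and 141 CPM, neither of which is called. On the higher side were the activin antagonist FST with 26.9 and 98.7 CPM, the ligands GDF11 with 18.9 and 71.0 CPM and TGFB2 with 3.54 and 14.6 CPM, and SMAD3 with 15 and 34.5 CPM. Of 22 measured genes of the TGF-beta list 5 were higher and 3 lower, with a median of 0.41, and of 12 of the BMP list 1 was higher and 2 lower, with a median of 0.05.

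Genes of the WNT pathway, which patterns the early neural plate, were more often higher than lower: 12 of 34 measured were higher and 2 lower, with a median of 0.72. FRZB, a secreted WNT antagonist, had 7.71 and 66.2 CPM and was 8.59-fold higher (7.32 to 10.1). The receptors FZD5 and FZD7 had 23.3 and 135 CPM and 136 and 387 CPM, the co-receptors LGR4 and ROR1 87.1 and 209 CPM and 162 and 364 CPM, and WLS, the carrier that brings WNT proteins to the surface, 4.56 and 29.6 CPM. SFRP2, another secreted antagonist, went the other way, with 343 and 122 CPM. Of 9 measured Hedgehog pathway genes, 4 were higher and 0 lower, with a median of 1.0: the receptor PTCH1 had 13.8 and 28.9 CPM, the co-receptor BOC 2.52 and 10.6 CPM, the inhibitor SUFU 15.4 and 40.7 CPM, and GLI3, which is also on the neural list, 48.5 and 119.8 CPM.

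Other ligand systems held single large differences. CYP26A1, the enzyme that degrades retinoic acid, had 24.6 and 113 CPM and was 4.58-fold higher (4.18 to 5.03), and CRABP1, which binds retinoic acid in the cytoplasm, had 166 and 54.0 CPM. Midkine (MDK) and pleiotrophin (PTN), related heparin-binding growth factors, had 529 and 1129 CPM and 37.8 and 150.4 CPM. Of 27 measured genes of the insulin and growth factor list, 5 were higher and 9 lower, with a median of -0.19, while their summed level was 1.24 times as high in labelled day 6. Among the lower members were the ligands VEGFA at 40.6 and 11.7 CPM and VEGFB at 16.1 and 3.90 CPM and the receptors KDR at 22.8 and 7.15 CPM and FLT1 at 97.8 and 32.1 CPM, of which VEGFA and FLT1 were chosen after their values were seen. Binding proteins of insulin-like growth factors split, with IGFBP5 at 5.19 and 46.2 CPM and IGFBP4 at 37.1 and 12.8 CPM. In the Notch list, 3 of 17 measured were higher and 2 lower, and the target HEY2 had 18 and 1.14 CPM.

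**Figure D2:**
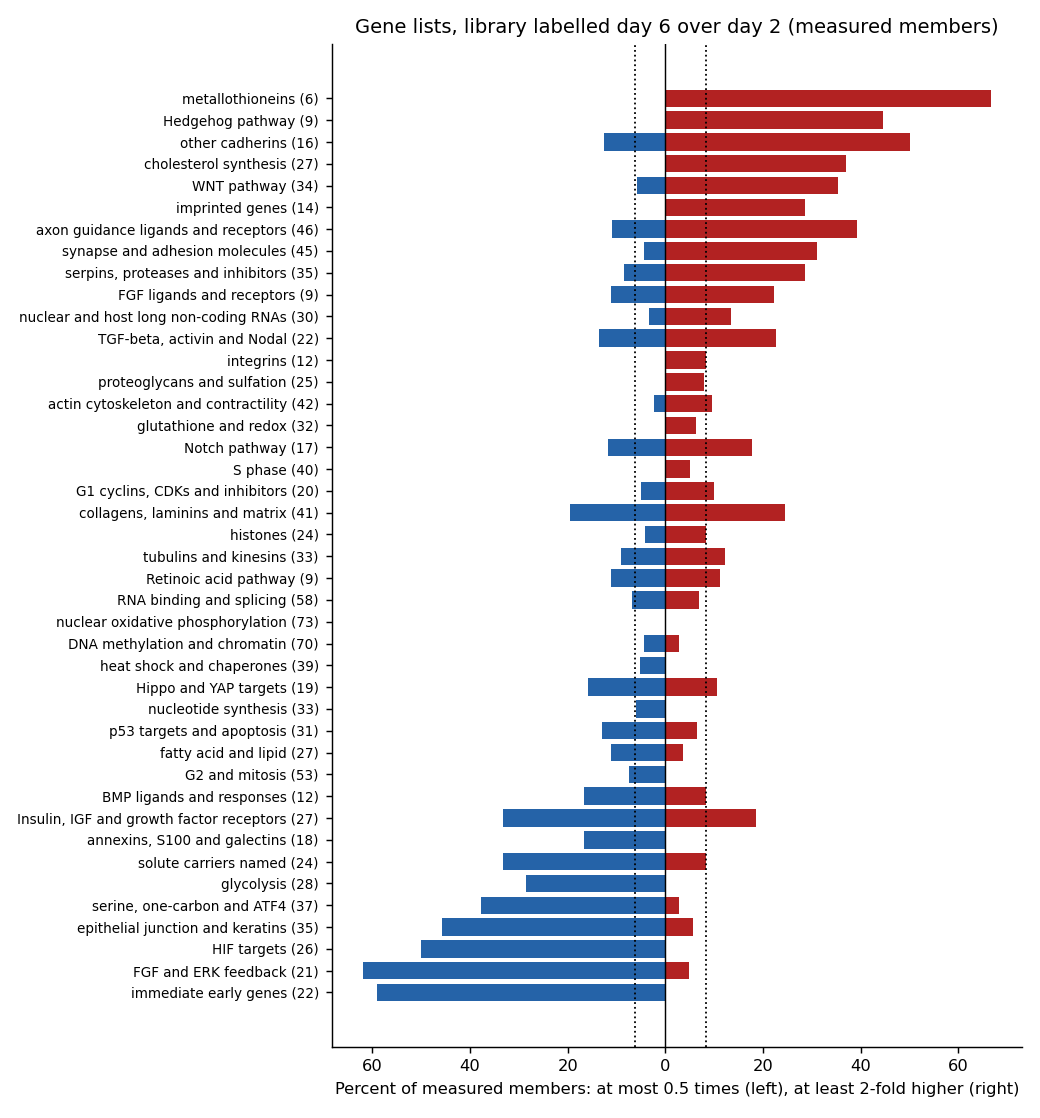
Percent of the measured members of each of 42 gene lists that were at most 0.5 times as high in labelled day 6 as in labelled day 2 (left, blue) or at least 2-fold higher (right, red); dotted lines mark the percents over all 10178 genes, 6.32% and 8.30%. FGF and ERK feedback genes stand at 61.9% lower and 4.76% higher, and cholesterol synthesis genes at 37% higher and 0% lower.

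HIF targets, genes that cells switch on when oxygen is short, were lower in labelled day 6. Of 26 measured, 13 were lower and 0 higher, with a median log2 ratio of -1.01, and the summed level was 1924 and 748 CPM. AK4, an adenylate kinase of the mitochondrial matrix, had 138 and 4.85 CPM and was 28.5-fold lower (24.7 to 33.1). ADM, the peptide hormone adrenomedullin, had 92.2 and 4.68 CPM and was 19.7-fold lower (17 to 23). BNIP3, a receptor that marks mitochondria for removal, had 304 and 62.8 CPM, and FAM162A, another mitochondrial protein, had 148 and 38.7 CPM. The collagen-modifying enzymes PLOD2 and P4HA1 had 18 and 2.50 CPM and 52.3 and 21.8 CPM. HIF1A itself had 109.8 and 96.3 CPM, and the HIF targets HILPDA at 38.3 and 38.7 CPM and GBE1 at 28.2 and 30.4 CPM lay between the limits.

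The core of the hypoxia response element is ACGTG. It was searched on both strands in the 250 bases before the start of each gene, in RefSeq promoters on GRCh38.p14. Of the 26 measured HIF targets 22 had a promoter entry, and 11 of these held the core: 8 of 11 lower members and 3 of 11 members between the limits. Of all 27305 promoters, 18.7% held it. AK4 and BNIP3 were the lower members that held CACGTG, where the matches of both strands overlap, as did 6.49% of all promoters. They are shown because they carry the same letters in front of genes that were lower together; capitals mark CACGTG, and each is read along its gene, 5′ to 3′, AK4 on the plus strand of chr1:65147387-65147536 and BNIP3 on the minus strand of chr10:131981980-131982129.
AK4: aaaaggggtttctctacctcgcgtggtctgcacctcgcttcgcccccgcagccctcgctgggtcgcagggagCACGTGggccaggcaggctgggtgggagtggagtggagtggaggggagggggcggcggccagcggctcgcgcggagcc
BNIP3: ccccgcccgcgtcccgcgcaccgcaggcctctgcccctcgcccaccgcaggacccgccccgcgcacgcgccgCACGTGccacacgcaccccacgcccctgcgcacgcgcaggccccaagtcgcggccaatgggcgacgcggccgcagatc
In the AK4 promoter this stretch covers 165 to 16 bases before the start, and in the BNIP3 promoter 206 to 57 bases. The match is a description of these letters only.

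Glycolysis genes, many of them also HIF targets, were lower in part. Of 28 measured, 8 were lower and 0 higher, with a median of -0.61. LDHA, which turns pyruvate to lactate, had 738 and 164 CPM and was 4.50-fold lower (4.37 to 4.63). PGK1, a glycolytic kinase, had 714 and 283 CPM, and HK2, which traps glucose in the cell, had 70.2 and 31.8 CPM. The glucose transporters SLC2A1 and SLC2A3 had 148 and 42.4 CPM and 299.7 and 64.8 CPM, the latter uncertain because SLC2A14 is a near-identical copy. The other 20 lay between the limits: ENO1 had 1698 and 1125 CPM, PKM 486 and 257 CPM, TPI1 726 and 609 CPM, and LDHB 1495 and 1374 CPM. GAPDH, also between the limits, had 64.2 and 109.7 CPM, a ratio of 1.71. Its level was far below those of ENO1 and LDHB, the reason was not tested, and it is therefore uncertain. In contrast, 0 of 73 measured nuclear genes of the respiratory chain were past 2-fold in either direction, with a median of -0.06 and summed levels of 16259.8 and 16040.0 CPM.

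Genes of the amino acid response and of serine and one-carbon metabolism were also lower: 14 of 37 measured were lower and 1 higher, with a median of -0.71. CHAC1, an enzyme that breaks down glutathione, had 72.5 and 5.02 CPM and was 14.5-fold lower (12.5 to 16.8). ASNS, asparagine synthetase, had 184 and 52.0 CPM and was 3.53-fold lower (3.35 to 3.72). The folate enzymes MTHFD2 and MTHFD1 had 210.4 and 87.1 CPM and 129.6 and 52.5 CPM, and the stress factors DDIT3 and CEBPB 11.5 and 3.15 CPM and 39.0 and 8.19 CPM. ATF4, which drives the response, had 341 and 175 CPM, just inside the limit of 0.5 at a ratio of 0.512. The higher member, SLC6A9, is a glycine transporter and had 10.5 and 24.2 CPM.

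CHAC1 and ASNS were also the lower members of this list whose promoters held the amino acid response element TGATGNAA, searched on both strands in 250 bases. Of 37 measured members, 26 had a promoter entry. The element was in 2 of 13 lower members and 1 of 12 between the limits, against 3.19% of all promoters. It is in capitals below, on the plus strand of chr15:40953236-40953295 for CHAC1, 235 to 176 bases before the start, and on the minus strand of chr7:97872443-97872502 for ASNS, 94 to 35 bases before the start.
CHAC1: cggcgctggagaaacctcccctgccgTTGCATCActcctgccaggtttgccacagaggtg
ASNS: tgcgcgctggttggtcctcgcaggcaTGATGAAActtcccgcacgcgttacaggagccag
Read along the gene, the match in CHAC1 is on the opposite strand, so its letters appear as the reverse complement, and the match in ASNS is on the strand of the gene.

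Cholesterol synthesis took the other direction. Of 27 measured genes, 10 were higher and 0 lower, with a median of 0.79 and summed levels of 2114 and 3731 CPM. HMGCS1, an enzyme of the early steps, had 102 and 244 CPM. FDPS had 25.2 and 95.6 CPM and was 3.80-fold higher (3.47 to 4.17). DHCR7, an enzyme of the last steps, had 70.8 and 175 CPM. The regulator SREBF2 had 143 and 233 CPM, between the limits. Of 27 measured fatty acid and lipid genes, 1 was higher and 3 were lower, and FASN had 244 and 406 CPM and SCD 404 and 691 CPM. The sterol response element TCACNCCAC was in 0 of 7 higher and 1 of 13 other cholesterol genes with a promoter entry, against 0.875% of all promoters. Likewise, the ETS site CCGGAAGT was in 0 of 15 FGF and ERK feedback genes with an entry, against 3.64% of all promoters. The cAMP response element TGACGTCA was in 1 of 10 lower and 1 of 8 other immediate early genes with an entry, against 1.77%.

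Metallothioneins, small proteins that bind zinc and copper, were higher as well, with 4 of 6 measured higher, 0 lower and a median of 1.12. MT2A had 59.3 and 281 CPM and was 4.74-fold higher (4.47 to 5.03). MT1F had 15.2 and 47.8 CPM, MT1E 33.9 and 74.1 CPM and MT1H 27.1 and 58.8 CPM, while MT1G had 92.4 and 113 CPM and MT1X 28.3 and 37.4 CPM. These genes are near-identical copies, so reads may have been split between them and their single levels are uncertain. The metal response element core, TGCACNC or TGCGCNC, was searched on both strands in 250 bases and was in 3 of 3 metallothionein promoters with an entry, against 24.7% of all promoters. The promoters of MT2A and MT1H hold 7 and 8 matches, in capitals below, on the plus strand of chr16:56608334-56608583 and of chr16:56669564-56669813.
MT2A: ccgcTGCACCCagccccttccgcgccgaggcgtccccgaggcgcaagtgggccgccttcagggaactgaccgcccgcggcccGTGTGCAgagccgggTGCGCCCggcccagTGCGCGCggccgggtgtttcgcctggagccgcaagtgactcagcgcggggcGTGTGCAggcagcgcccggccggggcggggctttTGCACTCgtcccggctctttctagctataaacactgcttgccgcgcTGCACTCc
MT1H: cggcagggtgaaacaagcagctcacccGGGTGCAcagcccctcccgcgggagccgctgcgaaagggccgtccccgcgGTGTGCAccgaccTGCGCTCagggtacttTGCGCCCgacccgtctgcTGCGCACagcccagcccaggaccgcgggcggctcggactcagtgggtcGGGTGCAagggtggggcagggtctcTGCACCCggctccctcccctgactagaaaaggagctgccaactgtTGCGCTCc
Both run from 250 bases to 1 base before the start, and a match on the opposite strand appears as its reverse complement.

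In single cells, each thinned to 1000 UMIs, the same lists differed between the libraries without separating them. HIF target UMIs averaged 1.79 and 0.798 per cell, and 78.8% and 54.1% of cells held at least 1. Feedback genes of FGF and ERK averaged 1.08 and 0.502 UMIs, with 62.9% and 38.6% of cells holding 1. Glycolysis UMIs had medians of 9.0 and 6.0 per cell. Cholesterol synthesis averaged 2.06 and 3.68 UMIs, and metallothioneins 0.334 and 0.731 UMIs, with 18.9% and 34.1% of cells holding 1. The boxes for glycolysis and for cholesterol synthesis touch or overlap between the libraries, so many cells of one library lie within the range of the other.

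**Figure D3:**
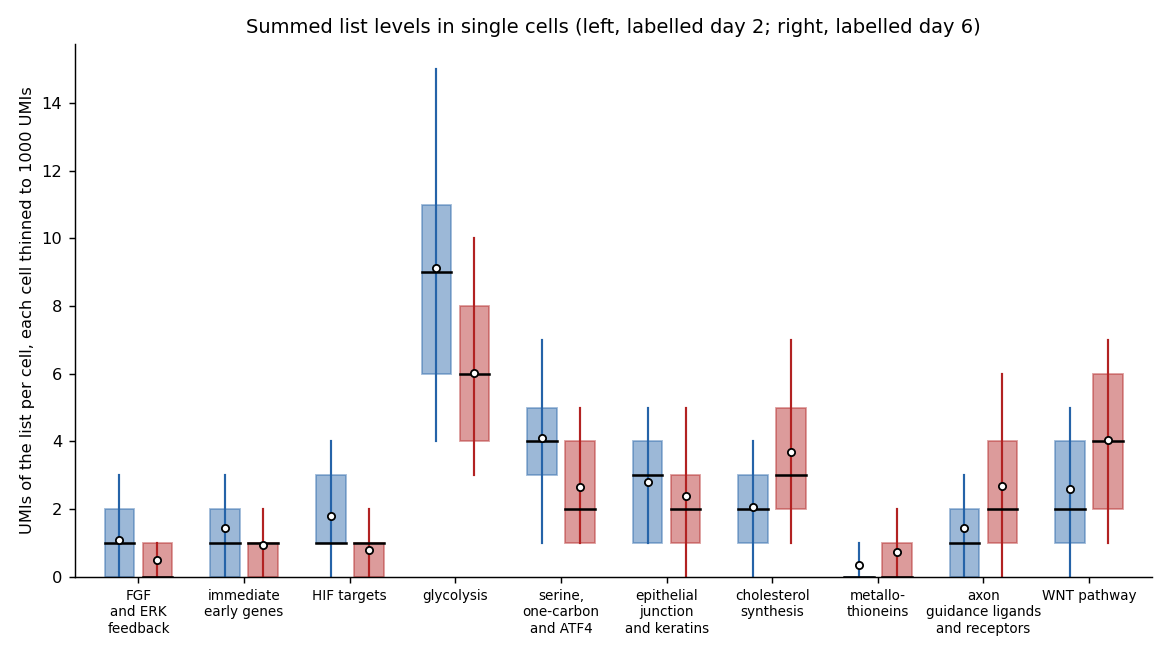
Summed UMIs of 10 gene lists per cell, each cell thinned to 1000 UMIs, for 2419 cells labelled day 2 (left of each pair) and 4180 labelled day 6 (right); boxes are quartiles, black lines medians, whiskers the 10th to 90th percentiles and white points means. Means are 9.14 and 6.01 for glycolysis and 2.06 and 3.68 for cholesterol synthesis.

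RNA levels of epithelial junction and keratin genes were lower in part. Of 35 measured, 16 were lower and 2 higher, with a median of -0.84, while their summed level was 2847 and 2370.3 CPM. EPCAM, an adhesion protein of epithelia, had 212 and 44.1 CPM and was 4.82-fold lower (4.56 to 5.09). E-cadherin (CDH1) had 94.2 and 39.7 CPM and P-cadherin (CDH3) 72.8 and 19.2 CPM, whereas N-cadherin (CDH2), on the neural list, had 47.9 and 209 CPM. Splicing and transcription factors of epithelia were among the lower members: ESRP1 and ESRP2, which set epithelial splicing, had 124 and 19.7 CPM and 10.2 and 1.87 CPM, and the factors GRHL2 and OVOL2 29.8 and 4.41 CPM and 14.8 and 3.22 CPM. Keratin KRT18 had 229.5 and 53.6 CPM, but its partner KRT8 had 75.5 and 45.1 CPM and KRT19 84.3 and 95.4 CPM, both between the limits.

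Claudins, the sealing strands of tight junctions, went in both directions. Of 6 measured, 3 were lower and 1 higher, and the median log2 ratio was -1.24, yet their summed level was 1.43 times as high in labelled day 6, because CLDN6 had 435 and 768 CPM. CLDN7, CLDN3 and CLDN11 were lower, the last at 15.1 and 2.08 CPM, and CLDN5, known from blood vessels, was higher at 0.824 and 11.8 CPM. TJP1, which ties claudins to actin, had 357 and 452 CPM and is not called. Of 18 measured annexin, S100 and galectin genes 0 were higher and 3 lower, with a median of 0.07, and S100A11, a calcium-binding protein, had 101 and 26.0 CPM. Of 17 tetraspanins 2 were higher and 1 was lower, with a median of 0.14, and the lower one was CD9, on the pluripotency list, at 169.8 and 22.7 CPM.

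Axon guidance genes steer cells and growth cones, and 18 of 46 measured were higher and 5 lower, with a median of 0.81. EPHA4, an ephrin receptor, had 28.7 and 357 CPM and was 12.4-fold higher (11.5 to 13.5), EPHB2 had 11.4 and 92.7 CPM, and the ligand EFNA5 73.2 and 558 CPM, 7.63-fold higher (7.24 to 8.04). NRP2, a semaphorin co-receptor, had 23.5 and 156 CPM, RGMA, a repulsive cue, 44.2 and 163 CPM, and DRAXIN, another, 33.8 and 126 CPM. The lower members were EPHA1 at 42.7 and 13.4 CPM, EPHA2 at 17.5 and 7.68 CPM, EFNA3 at 13.9 and 4.80 CPM, SEMA3F at 11.5 and 4.0 CPM and SLIT2 at 24.3 and 9.64 CPM. The ratio of SLIT2 was 1.09 in cells below 5% mitochondrial UMIs.

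Adhesion molecules of synapses and cadherins outside the junction list held both directions. Of 45 synapse and adhesion genes 14 were higher and 2 lower, with a median of 0.58: BASP1, a growth cone protein, had 392 and 1023 CPM, NRCAM 10.8 and 55.0 CPM and the neurexin NRXN3 46.5 and 162 CPM, while the neuroligin NLGN4X had 274 and 114 CPM. Of 16 other cadherins, 8 were higher, such as FAT1 at 39.7 and 98.0 CPM, and 2 lower, CDH18 and CDH12, the latter at 263 and 116 CPM. Protocadherins split by level: of 9 measured 3 were higher and 2 lower with a median of 0.38, but their summed level in labelled day 6 was 0.450 times that in labelled day 2. PCDH11X had 794 and 148 CPM and was 5.37-fold lower (5.22 to 5.53), uncertain because a near-identical copy lies on the Y chromosome. PCDH15 had 824 and 323 CPM, and PCDH7 16.9 and 66.2 CPM.

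The matrix differed by gene rather than as a whole. Of 41 measured collagens, laminins and matrix proteins, 10 were higher and 8 lower, with a median of 0.39. COL1A2, a chain of type I collagen, had 25.8 and 159 CPM and was 6.14-fold higher (5.62 to 6.71), while its partner COL1A1 had 23.2 and 30.5 CPM. COL2A1, type II collagen, had 9.84 and 62.1 CPM, SPARC 125 and 295 CPM and FBLN1 102 and 231 CPM. Thrombospondins were lower, THBS1 at 13.2 and 3.61 CPM and THBS2 at 12.5 and 2.11 CPM, as were COL6A2 at 16.2 and 3.73 CPM and COL9A3 at 31.3 and 10.8 CPM. Among integrins, ITGA5, a fibronectin receptor chain, was the called member, at 4.80 and 26.8 CPM. Of 35 serpins, proteases and inhibitors, 10 were higher and 3 lower, or 28.6% and 8.57%, against 8.30% and 6.32% of all genes compared.

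Cytoskeletal genes mostly lay between the limits, with a few exceptions. Of 42 actin genes, 4 were higher and 1 lower, and ACTB had 3297 and 2946 CPM. Without the cells in clusters of another library 2 were higher and 2 lower, as ACTC1 and ACTA1 were no longer called. TUBA1A, the alpha tubulin of developing neurons, had 426 and 1491 CPM and was 3.50-fold higher (3.42 to 3.58), and DPYSL3, a collapsin response protein that binds microtubules, had 454 and 1622 CPM, 3.57-fold higher (3.49 to 3.65). The microtubule-associated proteins MAP1B and MAP2 had 237 and 477 CPM and 24.4 and 96.3 CPM. TUBB2A at 192 and 87.0 CPM and TUBA4A at 16.4 and 2.33 CPM were lower. Of 33 measured tubulins and kinesins, 4 were higher and 3 lower, with a median of 0.12.

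Transporters, channels and receptors did not share 1 direction. Of 141 measured solute carriers 15 were higher and 15 lower, with a median of 0.13. Each count is 10.6%, against 8.30% higher and 6.32% lower over all genes compared. The creatine transporter SLC6A8 had 36.1 and 151 CPM and the inositol transporter SLC5A3 20.6 and 63.7 CPM. The nucleoside transporter SLC29A1 had 139 and 55.3 CPM and the amino acid transporter SLC7A5 66.0 and 27.3 CPM. Of 36 genes matched by symbol as sodium, calcium and other channels 10 were higher and 2 lower, or 27.8% and 5.56%. The match also took in ANOS1, which is not a channel. TRPM3 had 85.3 and 249 CPM and the touch channel PIEZO2 38.3 and 9.60 CPM. Of 29 genes matched by symbol as neurotransmitter receptors 4 were higher and 6 lower, or 13.8% and 20.7%. That match also took in GLRX5, which is not a receptor. HLA and interferon genes had 2 of 17 higher and 5 lower, or 11.8% and 29.4%. Among the lower were IFITM1 at 17.2 and 2.25 CPM and IFITM2 at 301 and 104 CPM.

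Most proliferation genes lay between the limits. Summed levels were 3274 and 3723 CPM for S phase genes and 6249.7 and 4725 CPM for G2 and mitosis genes. Of 40 S phase genes 2 were higher and 0 lower, CDC6, which licenses replication origins, at 51.9 and 114 CPM and UHRF1, which guides maintenance of DNA methylation, at 19.7 and 50.3 CPM. Of 53 G2 and mitosis genes 0 were higher and 4 lower, with a median of -0.38, and PTTG1, or securin, had 316 and 121 CPM. MKI67 had 58.4 and 66.2 CPM. MYC, which drives growth, had 39.0 and 7.73 CPM and was 5.05-fold lower (4.43 to 5.77), whereas MYCN had 105 and 72.7 CPM. CCNG2, a cyclin known from resting cells, had 22.6 and 123 CPM. Of 31 p53 targets and apoptosis genes 2 were higher and 4 lower, or 6.45% and 12.9%, against 8.30% and 6.32% of all genes compared. Beside PMAIP1, TP53I3 had 19.4 and 67.2 CPM, and the classic target MDM2 had 18.1 and 18.5 CPM.

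Chromatin genes were mostly alike in level. Of 70 measured, 2 were higher and 3 lower, with a median of 0.21. The DNA methyltransferases DNMT3B, DNMT1 and DNMT3A had 530.5 and 601 CPM, 107 and 123 CPM and 51.8 and 52.2 CPM, and the demethylases TET1 and TET3 109 and 124 CPM and 31.7 and 53.5 CPM. EZH2, the Polycomb methyltransferase, had 57.4 and 109 CPM, and its partner JARID2 411 and 230.2 CPM, both between the limits. The lower members were GADD45B at 11.5 and 1.07 CPM, KDM4C at 17.6 and 6.69 CPM and GADD45G at 15.6 and 7.25 CPM. GADD45G had a ratio of 1.08 in cells below 5% mitochondrial UMIs. Of 239 zinc finger genes of the ZNF family, 21 were higher and 3 lower, with a median of 0.37. These are 8.79% and 1.26%, against 8.30% and 6.32% of all genes compared, so the share higher is near that of all genes. Among them, ZNF521, a regulator of neural commitment, had 36.6 and 127 CPM.

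Ribosomal and mitochondrial genes, which hold most of the abundant RNA, mostly stayed within 2-fold. Of 82 cytosolic ribosomal protein genes 0 were higher and 1 was lower, RPL22L1 at 170.1 and 73.5 CPM, and the median was -0.24. Of 21 mitochondrially encoded genes 0 were higher and 3 lower, with a median of -0.08. MT-RNR1, the small ribosomal RNA of mitochondria, had 8396 and 3166 CPM and was 2.65-fold lower (2.63 to 2.67), while the large one, MT-RNR2, had 17063 and 18463 CPM from the same transcript. Messenger RNAs of mitochondria had ratios such as 1.21 for MT-CO1 and 0.923 for MT-ND4. Of the other 2 lower members, MT-TC had 212 and 82.8 CPM and the other was MT-TA, both transfer RNA genes. Of 58 RNA-binding and splicing genes 4 were higher and 4 lower, 6.90% each, near the 8.30% and 6.32% of all genes compared. SFPQ, a splicing factor of paraspeckles, had 242 and 523 CPM, and RBM47, an epithelial RNA-binding protein, 87.2 and 12.2 CPM.

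Long non-coding RNAs were called in both directions. Of 30 nuclear and host RNAs 4 were higher and 1 lower, or 13.3% and 3.33%. MIAT had 80.5 and 407 CPM and was 5.05-fold higher (4.80 to 5.32), whereas MALAT1 had 799 and 639 CPM. Of 67 LINC RNAs, 11 were higher and 6 lower, or 16.4% and 8.96%. Their summed level went the other way, at 19808 and 14852 CPM, of which LINC00486 held 16655 and 12112 CPM. Of 99 antisense RNAs 13 were higher and 8 lower, or 13.1% and 8.08%, against 8.30% and 6.32% of all genes compared. Since the strand setting of the counting is not known, reads of an antisense RNA and its partner cannot be told apart. Among 67 antisense RNAs with a measured partner 13 were called, and the partner was called in the same direction for 6, in the opposite direction for 0 and lay between the limits for 7. EPHA1-AS1 at 10.9 and 3.54 CPM next to EPHA1 at 42.7 and 13.4 CPM is 1 such pair. Of 14 imprinted genes 4 were higher and 0 lower, or 28.6% and 0%. Among the higher were NDN at 34.5 and 83.9 CPM and NNAT at 40.7 and 113 CPM.

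Shares of cells with a UMI, each cell thinned to 1000 UMIs, moved with the levels. Over all genes compared, the median share was 2.77% of cells in labelled day 2 and 3.11% in labelled day 6, and 106 genes were at least 10 percentage points higher and 111 at least 10 points lower. CUZD1 was in 2.19% and 49.5% of cells (10.6% and 81.1% without thinning), TUBA1A in 36.0% and 78.3% (75.1% and 96.6%), and FGFR1 in 27.7% and 53.2% (63.5% and 79.7%). On the lower side, PCDH11X was in 53.9% and 12% of cells (85.6% and 46.2% without thinning), LDHA in 50.4% and 16% (82.5% and 55.3%), PMAIP1 in 20.5% and 0.837% (56.1% and 8.28% without thinning) and AK4 in 12.7% and 0.909% (44.8% and 4.02%). Free RNA can give UMIs to cells that do not express a gene. As a look at stray UMIs, 13 genes of tissues absent here had median shares of 0.0413% and 0%. The largest was ACTA1, at 0.951% and 1.41%, and the next MYH6, at 0.124% and 0.0478%. Free RNA comes from the cells cultured, so such genes cannot gauge it for genes that these cells express. It was not estimated for those genes. The shares of AK4, PMAIP1 and DUSP6 in labelled day 6, the last at 0.550%, lie between those of MYH6 and ACTA1. ACTA1 itself was 2.27-fold higher in labelled day 6. That position does not settle whether AK4, PMAIP1 and DUSP6 stand above free RNA, as neither gene measures theirs. Their shares in labelled day 6 are not read as expression. LINC00486, STEAP1B and RPS2 had a UMI in 100% of unthinned cells of both libraries, at 16655 and 12112, 7764 and 5361, and 6159 and 5229 CPM. Whether these UMIs come from expression of the named genes in each cell was not tested, and these shares are not read as such.

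**Figure D4:**
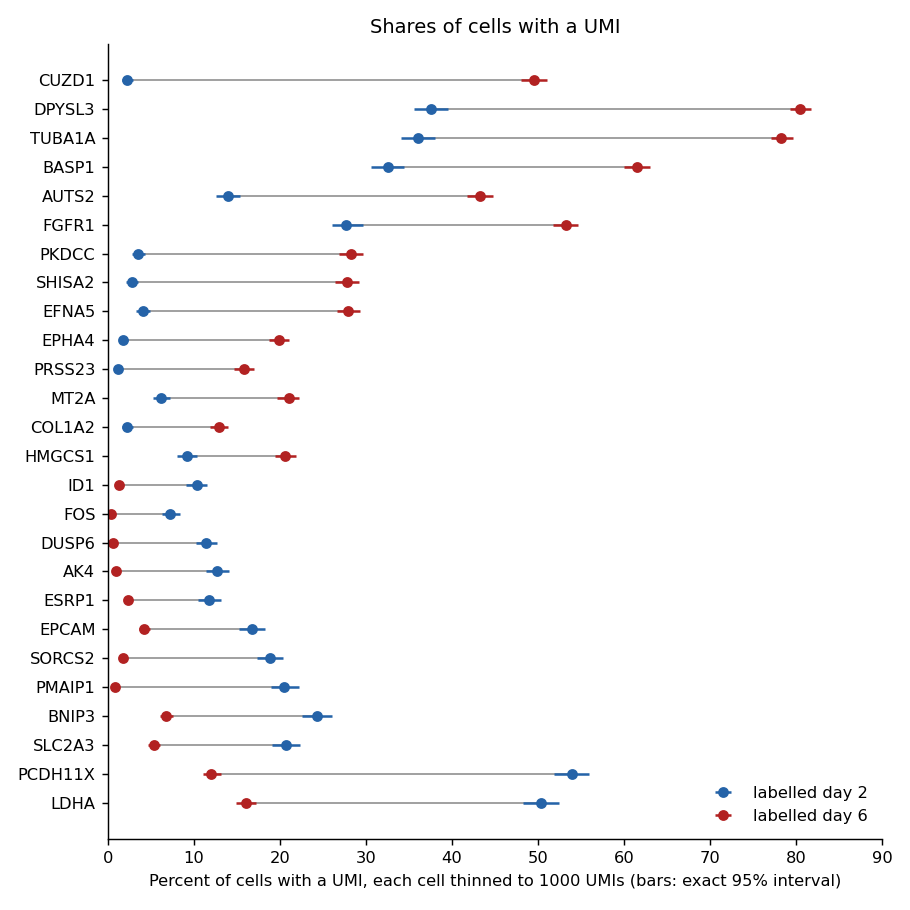
Percent of cells with at least 1 UMI of a gene, each cell thinned to 1000 UMIs, for 26 genes in labelled day 2 and labelled day 6; bars are exact 95% binomial intervals for counting error only. CUZD1 stands at 2.19% and 49.5%, and LDHA at 50.4% and 16%.

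Most markers of mesendoderm and of trophoblast or amnion were below 1 CPM. Of 21 mesendoderm markers 1 passed 10 CPM, KDR, which was 3.19-fold lower, and the summed level was 38.6 and 21 CPM; 15 and 17 of them were below 1 CPM. Of 20 trophoblast and amnion markers 2 passed, TEAD3 and IGFBP3, the latter 7.90-fold higher, with summed levels of 55.8 and 70.0 CPM and 12 and 13 markers below 1 CPM. Of 20 neural crest and placode markers 7 passed, 1 higher and 3 lower, with summed levels of 149 and 108 CPM; FOXD3 had 27.3 and 0.121 CPM and ERBB3 30.6 and 6.01 CPM. Of 18 neuron markers 8 passed and 5 of these were higher, with summed levels of 238 and 523 CPM; DCX had 6.74 and 59.9 CPM and STMN2 7.85 and 41.9 CPM. Neuron markers overlap the synapse and tubulin lists above, and their part in those counts was not tested. HOX genes summed to 2.52 and 1.62 CPM and GATA factors to 3.35 and 1.72 CPM, with 0 members past 10 CPM.

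Mitochondrial share differed between the libraries, so counts were repeated within ranges of it. With cells of at least 5% mitochondrial UMIs 833 genes were higher and 706 lower, and with cells below 5%, 1185 labelled day 2 and 1648 labelled day 6, 1076 were higher and 561 lower. Of 399 named genes past 2-fold, 389 stayed past it in the former and 365 in the latter. HIF targets summed to 1787 and 812 CPM and glycolysis genes to 10555 and 7247 CPM in cells below 5%. Single genes moved more: in those cells the ratio of GREB1L was 73.2, that of EPHA4 30.3, and that of RCAN2 2.09, against 36.4, 12.4 and 10.5 in all kept cells. ADM had a ratio of 0.145 against 0.0507, ANKRD31 0.0844 against 0.0132 and CDH18 0.140 against 0.0382, all still lower.

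**Figure D5:**
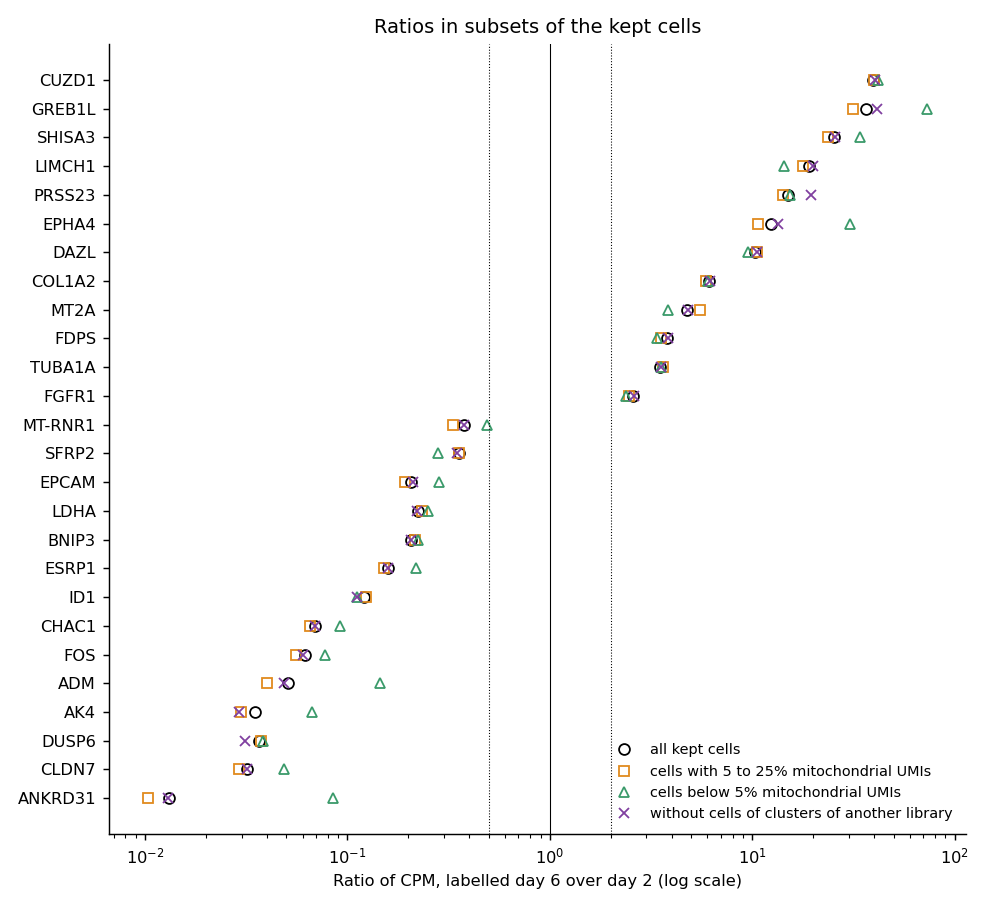
Ratio of labelled day 6 over labelled day 2 (log scale) for 26 genes in all kept cells, in cells with at least 5% and below 5% mitochondrial UMIs, and without cells in clusters mostly of another library. The direction is the same in all 4 for the genes plotted, while the size differs for genes such as GREB1L, at 36.4 in all kept cells and 73.2 below 5%.

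Leaving out barcodes kept in another library, 108 in labelled day 2 and 152 in labelled day 6, gave 840 higher and 649 lower genes, and 398 of the 399 named genes past 2-fold stayed so. Leaving out the 42 and 161 cells in clusters held mostly by another library gave 865 higher and 656 lower genes, and 396 of the 399 named genes stayed past 2-fold. Of the BMP list 2 genes were then higher in place of 1, and of the tetraspanins 2 were lower in place of 1. Without the barcodes kept in another library, 2 tetraspanins were lower as well, and 1 of the HLA and interferon genes was higher in place of 2. For DLK1, an imprinted Notch ligand with 3137 CPM in labelled day 0, the ratio was 8.43 without the cells in other clusters and 3.96 with them. For ACTC1, a cardiac actin, the ratio of 2.55 was 1.74 without these cells, and for ACTA1 the ratio of 2.27 was 1.48, so both were no longer called. LHX5, a forebrain transcription factor on the neural list, was also over 1.5 times further apart without them, at a ratio of 85.6.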

How the data were processed

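Single-cell RNA of H9 cells was measured by inDrop in 3 libraries, of which those labelled day 2 and day 6 are compared, with the TruDrop protocol per the labels' protocols. For each, the authors deposited whole-number counts per gene and barcode. They were taken as UMI counts, since the method uses UMIs; collapse of duplicate reads is not stated. STAR and hg38 are named in the submitters' processing notes. For annotation, strand setting and barcode filter, nothing is given in the sources used here. Each deposited barcode had at least 100 genes.

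Rows were matched by symbol, which gave 31113 symbols; 29326 had a UMI in either library compared. Kept cells had at least 1000 UMIs, 500 genes and at most 25% mitochondrial UMIs, which left 20626135 UMIs labelled day 2 and 41268018 labelled day 6. Ratios of CPM have exact conditional binomial intervals, and Clopper-Pearson intervals go with the shares of cells. Each covers counting error only. A gene is called at a ratio of at least 2 or at most 0.5. Doublets were kept. Clusters came from scanpy 1.11.5 with igraph 0.11.9, 2000 variable genes, 30 components, 15 neighbours and resolution 0.5. Calculations used python 3.11.15, numpy 2.4.6, scipy 1.17.1 and pandas 2.3.3, figures matplotlib 3.10.9, and TMM scaling edgeR 4.0.16. The scripts were tested on simulated data.

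Named genes come from both ends of a ranking by the interval bound closest to 1, 20 at each end, over genes reaching 50 CPM in 1 of the libraries, outside the pluripotency and neural lists and clone-named transcripts. To these come the 10 largest differences of CPM and of thinned share in each direction, and up to 4 members of each list past 2-fold in each direction with its 2 most abundant. Further genes, such as list members between the limits, were chosen after their values were seen. The comparison and the lists were chosen with earlier results of these data known, so no list is independent evidence of a direction. Of 1759 list symbols, 50 matched by an older symbol. Gene positions are from GENCODE release 29, and promoter sequences from RefSeq. Scalings, filters, cell subsets and thinning were tried as alternatives.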

Additional observations from a re-analysis of the deposited data

How the results depend on the processing

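Most settings moved the numbers of genes past 2-fold, 845 higher and 643 lower, by less than 1.5 times. Exceptions were a minimum of 50 CPM (307 higher and 194 lower, with fewer genes compared), a minimum of 3 UMIs alone (2706 and 4842, with more genes compared), at most 10% mitochondrial UMIs (1300 higher) and barcodes below 1000 UMIs only (1277 higher); the cause of the last pair was not tested. GADD45G and SLIT2 reversed, to ratios of 1.08 and 1.09, in cells below 5% mitochondrial UMIs. That range, the barcodes below 1000 UMIs and leaving out barcodes kept in another library were chosen after seeing the data. The median log2 ratio over all genes ran from 0.09 to 0.31 over the settings and from 0.09 to 0.16 over the scalings, against 0.12. Of 399 named genes past 2-fold, 396 stayed past it under TMM factors, 397 under median-of-ratios factors and 360 in the barcodes below 1000 UMIs. No paired analysis was possible because each side is 1 library, and the letters A, B and A in the labels are not explained. With 1 library per side, variation between cultures cannot be told apart from the difference between labels, and at these depths levels near 0.145 and 0.0727 CPM rest on 3 UMIs.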

Other observations

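Genes below 50 CPM in both libraries stand outside the rule for leading genes, and some of them differed the most. Of these, 22 were at least 10-fold higher in labelled day 6 and 36 at least 10-fold lower. SRPX2, a secreted protein tied to language and synapse development, had 1 UMI in labelled day 2 and 798 in labelled day 6, at 0.0485 and 19.3 CPM, a ratio of 399 with a counting interval from 71.4 to 15773. FLRT3, an adhesion and guidance protein, had 0.776 and 32.2 CPM, DRD2, a dopamine receptor, 0.436 and 17.8 CPM, and the opioid pair PDYN and OPRK1, a peptide precursor and its receptor, 1.02 and 27.5 CPM and 0.485 and 14.4 CPM. LMO1, a LIM-only cofactor of transcription, had 1.5 and 40.2 CPM. MAP1A, a microtubule-associated protein, had 1.79 and 35.4 CPM, and LMX1A, a factor of the roof plate and midbrain, 1.21 and 19.6 CPM. Muscle, mucin and vessel genes were also here: XIRP2 had 2.96 and 47.5 CPM, MUC4 1.84 and 31.5 CPM and VWF 1.07 and 13.6 CPM. Without thinning, XIRP2 was in 2.19% and 24.4% of cells and MUC4 in 1.41% and 17.2%. ACTA1, the highest of 13 genes of absent tissues, was in 4.75% and 7.82% of unthinned cells, which does not gauge free RNA of XIRP2 or MUC4. How much of their shares is free RNA was not estimated, and the shares in labelled day 2 are not read as expression.

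On the lower side, FOXD3, a forkhead factor of stem cells and neural crest, had 564 and 5 UMIs, at 27.3 and 0.121 CPM. RAB17, a trafficking protein of polarised epithelia, had 16.2 and 0.242 CPM, GALNT3, which starts mucin-type sugar chains, 22.8 and 0.775 CPM, and SERPINB9, the inhibitor of granzyme B, 25.4 and 0.969 CPM. KLF5, a factor of stem cells and epithelia, had 13.6 and 0.897 CPM, NKX1-2 11.7 and 0.412 CPM, IL34, a ligand of the CSF1 receptor, 15.8 and 1.11 CPM, and PLA2G2A, a secreted phospholipase, 18.3 and 1.04 CPM. FAM65B had 45.5 and 1.79 CPM and was in 21.9% and 1.60% of cells without thinning. How much of the latter share is free RNA was not estimated, and it is not read as expression. These 36 genes were picked for being at least 10-fold lower, so their counting intervals add no further support. Variation between cultures was not measured.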
